A study of Saccharomyces cerevisiae with 4 samples.

Results

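Nup170 occupancy along the genome of Saccharomyces cerevisiae was compared between a strain labelled yku70∆ and a strain labelled wild type, using the ChIP-chip files of 2 of the 4 libraries in the series. Both strains were MATa, both carried the marker alleles leu2∆0, ura3∆0, his3∆1 and lys2∆0, and both expressed Nup170 with a 9xMyc tag from its own locus (NUP170-9xMYC::hphR). The first strain was also labelled yku70∆::natR. Cells were grown in YPD at 30 °C to an OD600 of 1 and cross-linked with 1% formaldehyde for 1 h. The Cy5 channel of each array held ChIP DNA, and the Cy3 channel held whole cell extract. Each group was 1 library hybridised to 2 arrays, and nothing in the labels says that the 2 hybridisations came from separate cultures. They therefore count as repeats and not as replicates, no p-value was computed, and each difference is given with its range over the 4 pairings of a yku70∆-labelled with a wild-type hybridisation. The 2 other libraries, Nup157 in wild type and Nup170 in a strain labelled sir4∆, serve here only for the check of labels and for values set side by side.

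Nup170 is a scaffold protein of the inner ring of the nuclear pore complex, the channel through the nuclear envelope. YKU70 encodes a subunit of the Ku heterodimer, which binds DNA ends, caps telomeres, brings telomerase to them and takes part in non-homologous end joining. In budding yeast, telomeres cluster at the nuclear envelope, and Ku and the silencing protein Sir4 provide 2 partly separate routes of attachment. HML and HMR, the silent copies of the mating type genes, are held in silent chromatin by the same Sir proteins that act at telomeres.

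The label of the deletion strain was checked first, in whole cell extract DNA, where a deleted gene should read as blank. All 14 readings of the 7 probes inside YKU70 (chromosome 13, positions 838381 to 840014 of the files) were above blank spots in the library labelled yku70∆. Their whole cell extract signal was 98.1% of that in wild type (84.4% to 108%, 95% order-statistic interval over probes), and YKU70 ranked 579 from the lowest among 2755 genes when set against the mean of the other libraries. These readings go against the label, so every result below is stated for the library labelled yku70∆. LEU2 and URA3 read as blank in both libraries (0 of 8 readings above blank), as labelled. LYS2, labelled as deleted, was above blank in 32 of 32 readings in both, and HIS3 in 2 of 4 readings. In the Nup157 library, LYS2 was above blank in 0 of 32 readings. In the library labelled sir4∆, 30 of 30 readings of the 15 probes inside SIR4 were above blank, which goes against that label as well. After removal of excluded spots, 41415 probes on 16 chromosomes were measured in both wild type and the library labelled yku70∆. Their median spacing was 257 bp. The median whole cell extract brightness lay between 25775 and 33396 per hybridisation, against 4918 to 5322 for blank spots. Across probes, Pearson's r between the 2 hybridisations of a library was 0.68 in wild type and 0.70 in the library labelled yku70∆. All values are log2 ratios of ChIP over whole cell extract, centred on the median of each hybridisation. The number of arrays limits their precision.

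Nup170 occupied largely similar genes in both libraries. Over 5568 genes, which are not independent replicates, the gene values (averaged over probes inside a reading frame or up to 500 bp upstream) had a Pearson's r of 0.91 between libraries. Single pairings gave 0.79 to 0.84, beside 0.79 between the repeat hybridisations of wild type and 0.82 between those of the library labelled yku70∆. The middle 90% of gene differences, yku70∆ label minus wild type, lay between -0.11 and 0.14, with a median of 0.011. At least 0.3 higher with the same sign in all 4 pairings were 4 genes (0.0718% of the genes measured), and 1 gene was lower (0.0180%). Without the demand on pairings, 7 gene means differed by that much between libraries, whereas 261 genes did between the 2 wild-type hybridisations and 39 between those of the library labelled yku70∆. At a smaller step of 0.2, 60 genes were higher (1.08%) and 17 lower (0.305%), and at 0.5 none was.

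**Figure D1:**
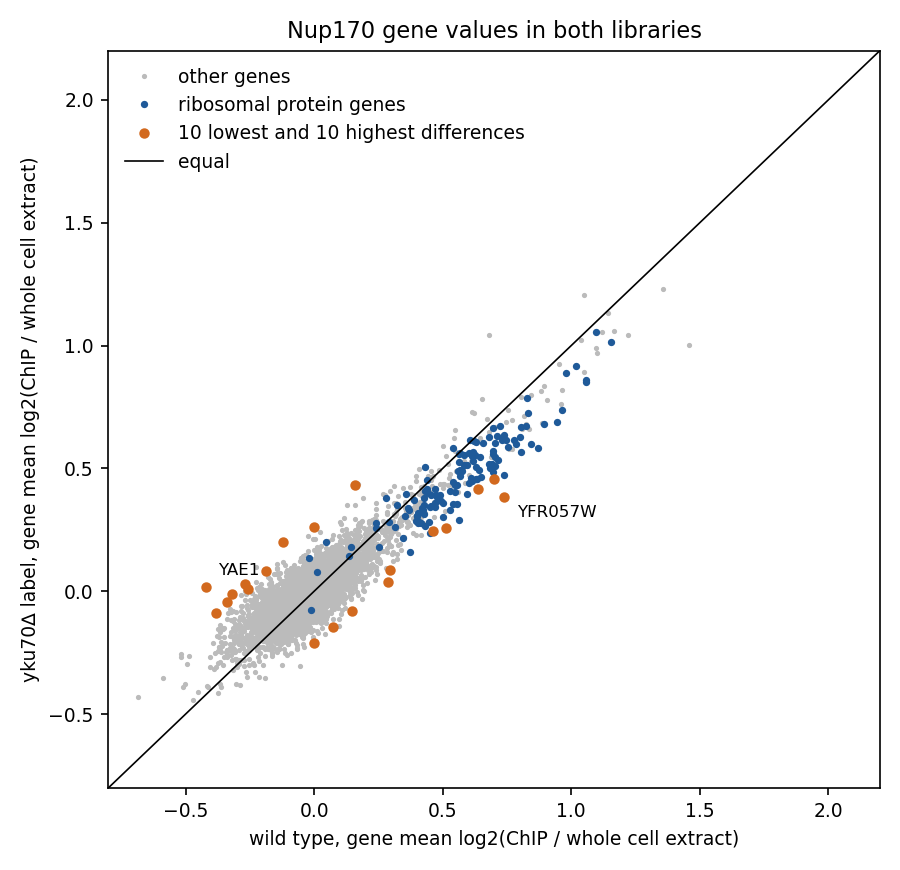
Gene values of Nup170 in the library labelled yku70∆ (vertical axis) against wild type (horizontal axis), averaged over the hybridisations of a library, with 1 point for each of 5568 genes, in log2 of ChIP over whole cell extract. Blue points are 135 ribosomal protein genes, orange points the 10 lowest and 10 highest differences among genes with at least 3 probes, and the line marks equal values; points follow the line with an r of 0.91.

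Differences of single genes toward higher occupancy were led by YAE1, which encodes an adaptor for the maturation of an iron-sulfur protein of ribosome recycling. YAE1 read -0.41 and -0.44 in the 2 wild-type hybridisations and -0.03 and 0.06 in those labelled yku70∆. The mean difference was 0.44, with pairings from 0.38 to 0.50. The ChIP signal of YAE1 differed by 0.18 and its whole cell extract signal by -0.26. Of its 3 probes, 2 were shared with another gene. Genes ranked here had to have 1 sign in all 4 pairings, so their groups cannot overlap. Of all genes, 19.5% were above 0 in all 4 pairings and 11.9% below. CTF8, a subunit of the Ctf18 clamp loader of sister chromatid cohesion, read -0.30 and -0.34 in wild type against -0.05 and 0.02, a difference of 0.31 (pairings 0.25 to 0.36). YPT6, a Rab GTPase of the Golgi, read -0.29 and -0.25 against 0.07 and -0.01, a difference of 0.30. INH1, an inhibitor of the mitochondrial ATP synthase, read -0.37 and -0.30 against 0.01 and -0.10, also a difference of 0.30. In all 4 of these genes, occupancy was below the genome median in wild type and close to it in the library labelled yku70∆. YHR007C-A differed by 0.32 in the mean, but 1 hybridisation carried this, since the values labelled yku70∆ were -0.07 and 0.47 against -0.10 and -0.13. PMP3, a small plasma membrane protein gene with only 2 probes, differed by 0.32 (pairings 0.15 to 0.50). The next genes were AGX1 (a glyoxylate aminotransferase, 0.29), MHF1 (a histone-fold protein of the kinetochore, 0.27), VBA2 (a vacuolar amino acid transporter, 0.27), EMC6 (a subunit of the ER membrane protein complex, 0.27) and YND1 (a Golgi apyrase, 0.26). MHF1 was above the median in both libraries, at 0.21 and 0.11 in wild type and 0.43 and 0.44 in the library labelled yku70∆. Of the 60 genes at least 0.2 higher, 57 were below 0 in wild type, and their median went from -0.23 to 0.0030. These genes were chosen on their difference from wild type, which by itself favours low wild-type values. In 49 of the 60, the log2 ChIP signal differed by more than the whole cell extract signal did, with medians of 0.16 and -0.08. The library labelled sir4∆, set against the same wild type, was also higher in 59 of the 60 (median difference 0.13). Sharing the wild-type library by itself favours the same side.

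Differences toward lower occupancy were led by YFR057W, the annotated gene nearest to the right end of chromosome 6, whose function is not known. YFR057W read 0.77 and 0.71 in wild type and 0.43 and 0.34 in the library labelled yku70∆, with a difference of -0.35 and pairings from -0.43 to -0.28. Its ChIP signal differed by -0.35 and its whole cell extract signal by 0.01. The next genes, RPL23A and RPL27B (proteins of the large ribosomal subunit) and YRA1 (an mRNA export factor), differed by -0.25, -0.22 and -0.24. Their pairings ran as far as -0.0054, -0.08 and -0.04, and in all 3 genes the second wild-type hybridisation read lower than the first. ECM12 differed by -0.25, DFP2 by -0.22 and TOS6, a cell wall protein gene, by -0.21. In TOS6 the ChIP signal differed by -0.0052 and the whole cell extract signal by 0.21. DFP2 (-0.08 and 0.14) and RPL23A (-0.12 and 0.13) also differed more in whole cell extract. HUG1, an inhibitor of ribonucleotide reductase induced by DNA damage, read 0.13 and 0.16 against -0.02 and -0.14. The ubiquitin-like RUB1 read -0.0066 and 0.0096 against -0.19 and -0.23, a difference of -0.21 (pairings -0.24 to -0.18). COS12, a member of the subtelomeric COS family near the left end of chromosome 7, read 0.52 and 0.40 against 0.28 and 0.21, a difference of -0.22. Of the 17 genes at least 0.2 lower, 16 were above 0 in wild type, which the choice of genes on the difference by itself favours. In 11 of the 17, the ChIP signal differed by more than the whole cell extract signal did. Within 5 kb of a chromosome end lay 3 of the 17, as did 39 of the 5568 genes measured. Ribosomal proteins were encoded by 3 of the 17, as by 135 of the 5568.

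Nup170 signal in the last few kb of chromosomes had a lower median in the library labelled yku70∆. Over the 353 probes of the outermost 5 kb of the 32 arms, the median level was 0.23 and 0.19 in the 2 wild-type hybridisations and 0.15 and 0.15 in those labelled yku70∆. The median difference was -0.068 (-0.090 to -0.053, 95% interval over probes), with pairings from -0.12 to -0.035. It was below 0 at 243 of the 353 probes (68.8%), against 49.6% of all probes. The second wild-type hybridisation differed from the first by -0.08 over the same probes, so the difference between libraries was no larger than the spread between repeats, although it had 1 sign in all 4 pairings. The outermost 1 kb held the highest levels. There the 76 probes read 0.97 and 0.81 in wild type and 0.66 and 0.67 in the library labelled yku70∆, a median difference of -0.22 (pairings -0.37 to -0.04). The steps from 1 to 2, 2 to 3 and 3 to 4 kb differed by -0.12, -0.031 and -0.08, while the step from 4 to 5 kb (-0.036) changed sign between pairings. From 5 to 20 kb the median difference was 0.0099 over 1422 probes (pairings 0.0018 to 0.019).

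Both channels took part in the difference in the outermost 1 kb, while over the outermost 5 kb it was mainly in the ChIP channel. The size of the difference depended on how the libraries were scaled. In the outermost 1 kb, the ChIP signal differed by a median of -0.05 and the whole cell extract signal by 0.08. Over the outermost 5 kb, these were -0.06 and 0.0044. The signal of wild type was spread more widely than that of the library labelled yku70∆, with an SD on the lower side of the probe values, before smoothing, of 0.22 against 0.18. When both libraries were brought to the same spread, the difference was -0.026 over the outermost 5 kb and 0.018 over the outermost 1 kb. The number of arms with a lower median was then 18 of 32.

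**Figure D2:**
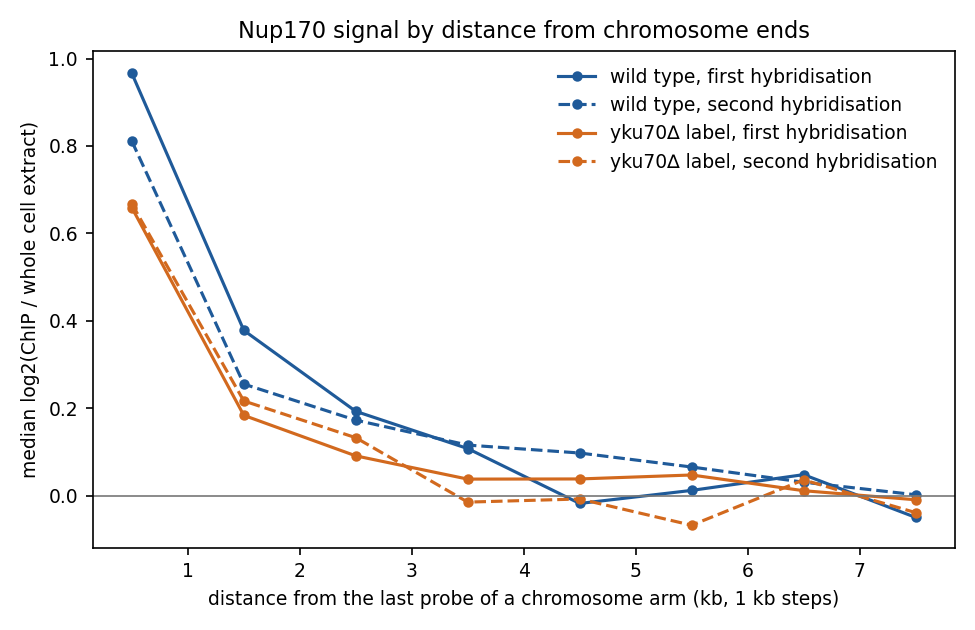
Median log2 ChIP over whole cell extract (vertical axis) in 1 kb steps from the last probe of each arm (horizontal axis), for each of the 4 hybridisations. In the outermost 1 kb, both wild-type hybridisations (0.97 and 0.81) sit above both hybridisations labelled yku70∆ (0.66 and 0.67), and all 4 come near 0 by 8 kb.

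Most arms shared the direction. The median difference of the outermost 5 kb was below 0 on 29 of 32 arms, below 0 in all 4 pairings on 15 arms and above 0 in all 4 on 1 arm. The 2 lowest values came from the right and left ends of chromosome 12, which had 1 probe each (-1.63 next to YLR466C-B, near blank in whole cell extract, and -0.66 next to YLL066W-B). Next came the right end of chromosome 1 at YAR075W (1.27 and 0.94 in wild type, 0.90 and 0.75 in the library labelled yku70∆, difference -0.28 over 11 probes). The right end of chromosome 6 at YFR057W (-0.24 over 19 probes) and the left end of chromosome 14 at YRF1-6 (-0.22 over 3 probes) followed. The pairings of the left end of chromosome 14 ran from -0.73 to 0.28, so no direction could be read there. The 3 highest were the left end of chromosome 10 at HXT9, a hexose transporter gene (0.029, pairings 0.0036 to 0.11), the right end of chromosome 16 at YPR202W (0.025) and the left end of chromosome 15 at YOL166W-A (0.0097). Their median levels in wild type were -0.06, -0.05 and 0.00019.

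**Figure D3:**
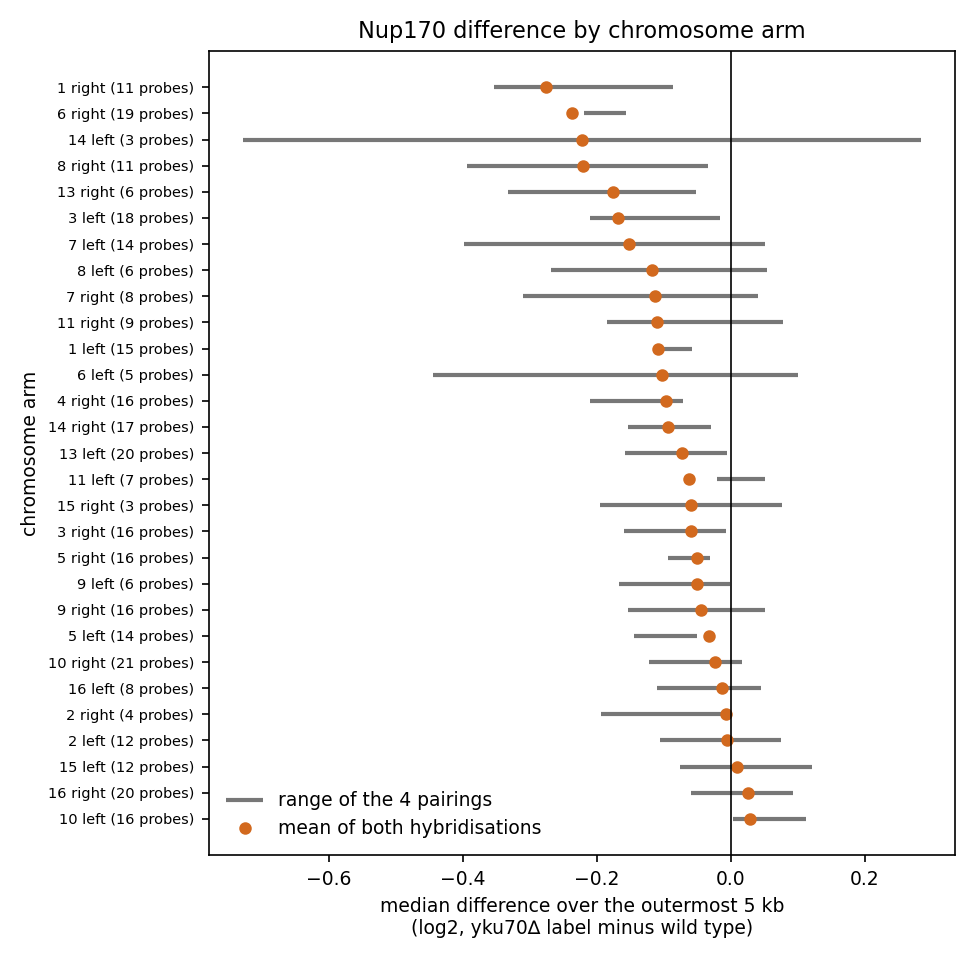
Median difference in log2 ChIP over whole cell extract, yku70∆ label minus wild type (horizontal axis), over the outermost 5 kb of the 29 arms with at least 3 probes (vertical axis). Points are differences of the means of both hybridisations, bars the range of the 4 single pairings, whose medians are taken separately so that a point can lie outside its bar; most points lie below 0.

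At the 2 chromosome ends described next, some probes with high Nup170 signal in wild type read lower in the library labelled yku70∆. Single probes were chosen after their values were seen. At the right end of chromosome 6, the last 7 probes (positions 268305 to 269826, at and beside YFR057W) averaged 1.09 and 0.89 in wild type, and 0.71 and 0.54 in the library labelled yku70∆. Each of the 7 differed by -0.32 to -0.40, with a ChIP difference of -0.33 and a whole cell extract difference of 0.034 over the 7. This end kept a median difference of -0.20 over its outermost 5 kb when both libraries were brought to the same spread, whereas the left end of chromosome 3 went from -0.19 to -0.10. At that end of chromosome 3, which carries HML, 31 of 35 probes were lower, with a median difference of -0.19. Of the 6 silent mating genes listed, only HMRA1 had enough probes for a gene value, so single probes are given here. The 2 probes annotated to HMLALPHA1, the first starting at position 14412 and the second at 14595, read 1.91 and 1.81, and 1.87 and 1.53, in wild type. They read 1.28 and 1.07, and 1.27 and 1.02 under the yku70∆ label. They differed by -0.69 and -0.55 with no overlap between groups. The probe at GEX1 that starts at 1930 differed by -0.64 and that at VBA3 that starts at 11184 by -0.60, also with no overlap. Of all probes, 15.7% were below 0 in all 4 pairings. For the whole left end the pairing of the first yku70∆-labelled with the second wild-type hybridisation gave 0.030.

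HMR, near the right end of chromosome 3, showed the same order of levels on its inner flank, at OCA4. The region described there, of 5 probes (positions 291802 to 293051), was chosen by its high values in wild type, which by itself favours a lower second library. It averaged 1.14 and 0.79 in wild type and 0.59 and 0.42 in the library labelled yku70∆. The difference was -0.46, with pairings from -0.72 to -0.20 and 1 of the 5 probes near blank. Its ChIP signal differed by -0.62 and its whole cell extract signal by -0.15. The probe that starts at 292461 differed by -0.70, from 0.84 and 0.40 to -0.20 and 0.04. Inside HMR, the gene HMRA1 read 0.44 and 0.25 in wild type and 0.33 and 0.25 in the library labelled yku70∆. Its difference of -0.053 changed sign between pairings (-0.19 to 0.08) and ranged from -0.20 with normexp background correction to 0.0087 with both libraries at the same spread. Over the 21 probes of HMR and 3000 bp on each side, 15 were lower and the median difference was -0.15 (pairings -0.29 to -0.0029). With both libraries at the same spread it was -0.047.

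**Figure D4:**
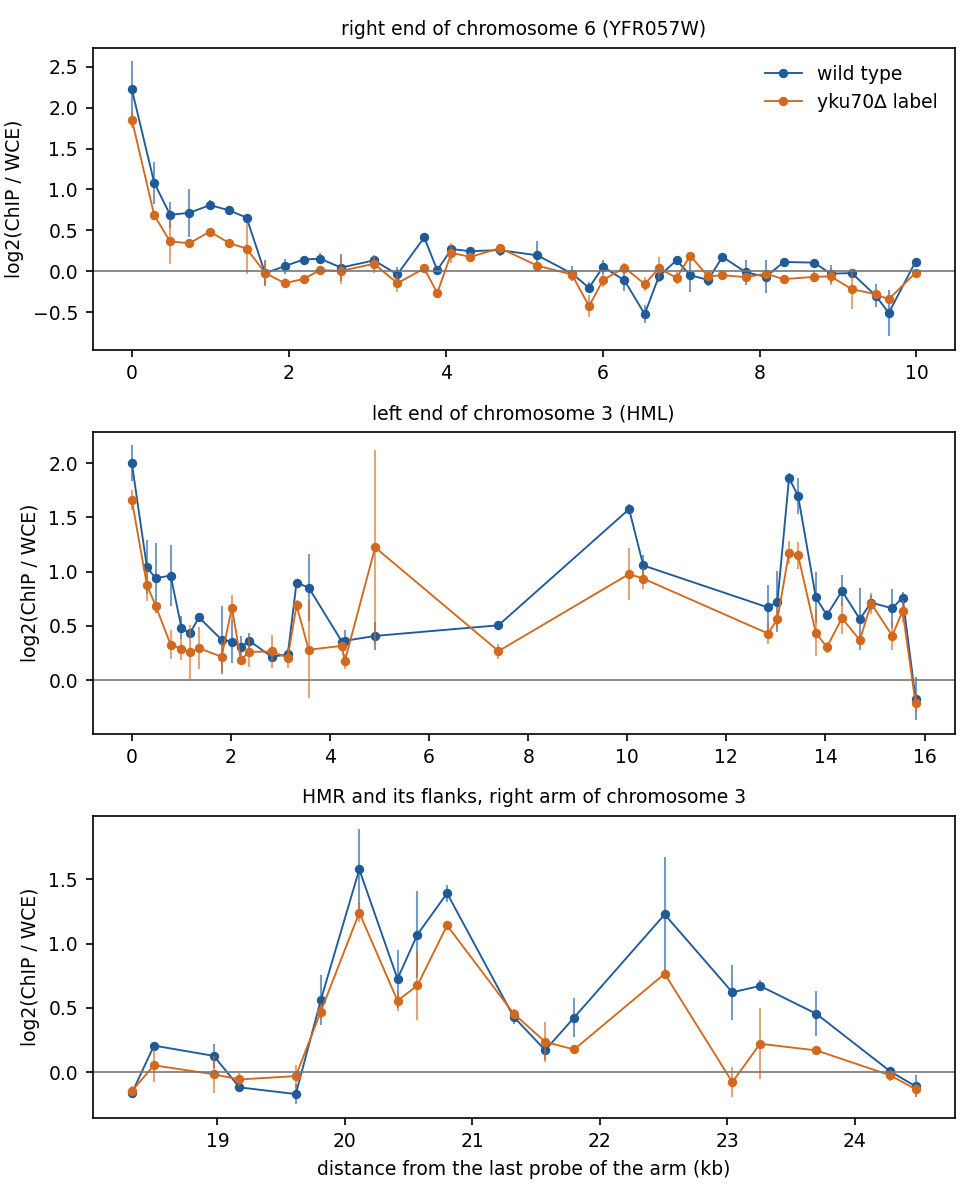
Log2 ChIP over whole cell extract by probe (vertical axes) against distance from the last probe of the arm (horizontal axes) at 3 loci, for wild type (blue) and the library labelled yku70∆ (orange), with probes near blank left out. Points are means of the 2 hybridisations and vertical lines join the 2 values. The orange points lie below the blue ones at the last 7 probes of chromosome 6 and at the probes annotated to HMLALPHA1 near 13.3 kb. They also do so on the inner flank of HMR near 23 kb.

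The subtelomeric gene families did not move as 1 group, and their measured members lay at unlike distances from chromosome ends. COS12, COS10, COS8, COS6 and COS7 lay at most 4342 bp from the last probe of an arm, and the FLO genes 16790 to 192211 bp. PAU10 and PAU19 lay 2159 and 1770 bp from it, and the other PAU genes 10005 to 217274 bp. Of 12 COS genes, which encode membrane proteins that help sort cargo into endosomes, 7 had enough probes, and 6 of these were lower (genome-wide, 43.7% of genes were lower). Their median difference was -0.092 (pairings -0.16 to -0.020) against 0.011 for all genes. After COS12 came COS10, at 0.11 and 0.12 in wild type and -0.05 and -0.0017 in the library labelled yku70∆, and COS8 at -0.14, COS6 at -0.09 and COS7 at -0.0095. COS9 (0.0015) and COS111 (-0.029), both more than 10 kb from an end, were close to 0. Of 24 PAU genes, stress-induced cell wall mannoproteins, 8 were measured and 6 were lower, against the same 43.7%. Their median was -0.066, and pairings ran from -0.17 to 0.029. PAU19 was at 0.88 and 0.79 in wild type and at 0.55 and 0.77 in the library labelled yku70∆, and PAU10 differed by -0.18 with pairings that crossed 0. PAU7, PAU13, PAU20, PAU23, PAU17 and PAU2 differed by -0.15, -0.07, -0.06, -0.04, 0.012 and 0.05. Of the 6 FLO genes, 5 were higher, against 56.3% of all genes, where FLO1, FLO5, FLO9, FLO10 and FLO11 encode cell adhesion proteins and FLO8 a transcription factor. The FLO median was 0.075 (pairings 0.0063 to 0.11), with FLO5, FLO10 and FLO1 higher in all 4 pairings by 0.06, 0.07 and 0.08. FLO11 differed by 0.10 and FLO8 by -0.012. FLO9 (0.19) rested on 1 hybridisation, at 0.57 against 0.14 in the other. None of the 8 YRF1 helicase genes had enough probes.

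Genes of the Ku and telomere machinery themselves showed little difference in Nup170 occupancy. Over 16 measured genes the median difference was 0.0051 (pairings -0.0010 to 0.04). None was called at a step of 0.2, where 1.08% of all genes were higher and 0.305% lower. YKU80, the partner of YKU70 in the Ku heterodimer, read -0.08 and 0.0049 in wild type and -0.03 and -0.04 in the library labelled yku70∆. RAP1, which binds telomere repeats and ribosomal protein gene promoters, differed by 0.019, and its partners RIF1 and RIF2 by -0.015 and 0.07. The telomerase genes EST1, EST2 and EST3 differed by -0.029, 0.0083 and -0.018. CDC13, STN1 and TEN1, the capping complex of single-stranded telomere ends, differed by 0.0063, 0.0019 and -0.06. XRS2 (0.09) and PIF1 (0.07), a subunit of the Mre11 complex and a helicase that removes telomerase, were higher in all 4 pairings, and MRE11 (-0.05) was lower in all 4. RAD50 differed by -0.05, TEL1, a telomere length kinase, by 0.025. TBF1, a factor that binds subtelomeres, was higher in all 4 pairings, by 0.06.

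Silencing and anchoring genes were spread around 0 as well. Over 15 silencing genes the median difference was 0.016 (pairings -0.03 to 0.04, and -0.00029 under 1 other processing). SIR1, SIR2, SIR3 and SIR4, the Sir proteins of silent chromatin, differed by 0.016, 0.04, 0.027 and -0.028. HST4, a Sir2-like deacetylase gene, was lower in all 4 pairings (-0.08), and HST1 (0.08) and ABF1 (0.04) were higher in all 4. The others, HST3, NAT1, DOT1, ARD1, SAS2, SAS4, SAS5 and ORC1, lay between -0.054 and 0.046. Among 8 genes that tether telomeres to the envelope or pore, the median was -0.00065. ESC1, a Sir4-binding anchor, differed by -0.0039, MPS3, an inner membrane anchor, by -0.04, and MLP1 and MLP2, filament proteins of the pore basket, by 0.0026 and 0.0028. CTF18 differed by -0.05, SRC1 by -0.0090, ASI1 by 0.0074 and NUR1, an inner membrane protein gene, by 0.14 with all 4 pairings above 0.

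Ribosomal protein genes differed by less than the repeat hybridisations of wild type did. Over 135 genes the median level was 0.73 and 0.39 in the 2 wild-type hybridisations and 0.50 and 0.43 in those labelled yku70∆. The first wild-type hybridisation stood above the other 3, and the median difference between the wild-type repeats was -0.33. The median difference was -0.10 (-0.12 to -0.088, interval over genes), with 121 genes lower (43.7% of all genes were), but single pairings gave -0.30, -0.21, 0.023 and 0.11. At a step of 0.2, none was higher, against 1.08% of all genes, and 3 were lower (RPL11A, RPL23A and RPL27B), against 0.305%, and 15 were below 0 in all 4 pairings, close to the 11.9% of all genes. RPS16A (-0.29) and RPL41B (-0.27) had the lowest values, and RPP2B (0.16) and RPP1A (0.15), acidic proteins of the ribosomal stalk, the highest. RPP1A and RPP2B were near 0 in wild type (0.03 and 0.07, and 0.01 and -0.05) and between 0.13 and 0.20 in the library labelled yku70∆. With both libraries at the same spread the median of the ribosomal protein genes was -0.0080.

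The sign of 3 other lists also changed with the hybridisations paired. Glycolytic genes had a median difference of 0.0078 (pairings -0.09 to 0.15). PDC1, the main pyruvate decarboxylase, read 1.36 and 0.83 in wild type against 1.03 and 0.95, and CDC19, pyruvate kinase, differed by -0.07. HXK2 and ADH2 were the highest, at 0.13 and 0.11. Translation factors had a median of -0.022 (pairings -0.19 to 0.13), with TEF2, an elongation factor gene, at -0.20 and CAM1 at 0.13. Histone genes had a median of 0.0095, with HHF1, 1 of the histone H4 genes, higher in all pairings by 0.21 on 2 probes, and the linker histone gene HHO1 by 0.17.

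Beside the COS and FLO genes, 4 lists had medians of 1 sign in all 4 pairings and under the processing alternatives run. Mitochondrial ribosomal protein genes had a median difference of 0.055 over 72 genes (pairings 0.03 to 0.06), with 49 higher, against 56.3% of all genes, and 22 higher in all 4 pairings, against 19.5%. RSM19, a small subunit protein gene, read -0.26 and -0.22 in wild type and -0.0013 and -0.0093 in the library labelled yku70∆. It was the only member of the 72 called at 0.2, near the 1.08% of all genes called higher. Nuclear pore genes had a median difference of -0.030 (pairings -0.05 to -0.0082) over 31 genes, with 23 lower, against 43.7% of all genes, and 9 lower in all 4 pairings, against 11.9%. NUP42, NUP2 and NUP145, which encode nucleoporins, differed by -0.11, -0.10 and -0.10. NUP170 itself differed by -0.06 and its paralogue NUP157 by 0.012, while POM33, a membrane nucleoporin gene, was the highest at 0.18. The 6 measured a-specific genes, which are expressed in MATa cells, were all lower, against 43.7% of all genes, with a median of -0.077 (pairings -0.16 to -0.013). AGA2, a subunit of a-agglutinin, read 0.06 and 0.07 against -0.08 and -0.08, and BAR1, the protease that degrades alpha factor, 0.50 and 0.27 against 0.26 and 0.22. STE2, MFA1, ASG7 and STE6 differed by -0.08, -0.08, -0.07 and -0.019. Haploid-specific genes, the fourth of these lists, had a median of -0.029 over 11 genes (pairings -0.10 to -0.0072), with the HO endonuclease gene at -0.15.

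**Figure D5:**
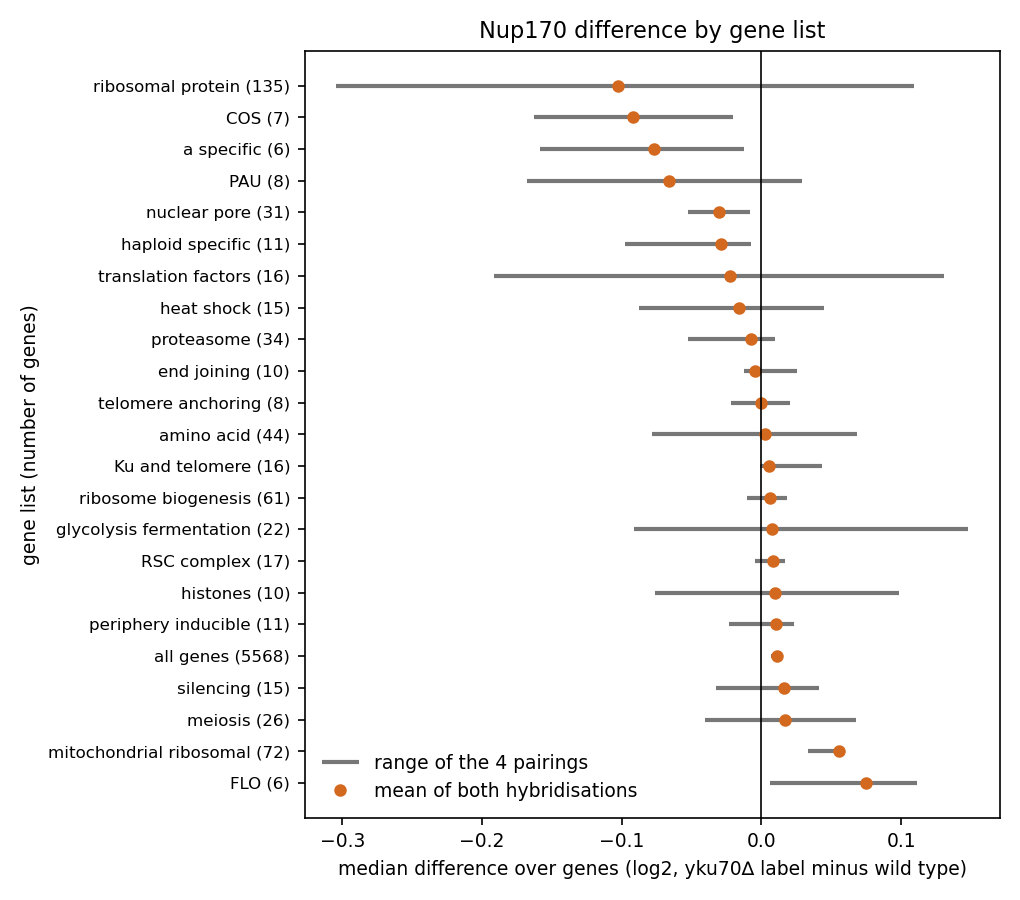
Median difference over the genes of each list (vertical axis, with the number measured), yku70∆ label minus wild type in log2 (horizontal axis). Points are means of both hybridisations and bars the range of the 4 pairings; the bar of the ribosomal protein genes crosses 0 (-0.30 to 0.11), as do those of glycolysis and translation factors, while that of the mitochondrial ribosomal protein genes (0.03 to 0.06) does not.

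The remaining lists stayed near the median of all genes. Ribosome biogenesis (0.0064), the RSC chromatin remodeller (0.0084), end joining (-0.0045), inducible genes known from the nuclear periphery (0.010), meiosis (0.017), the proteasome (-0.0072), amino acid synthesis (0.0027) and heat shock genes (-0.016) had pairings on both sides of 0. Among end joining genes, LIF1, a partner of DNA ligase IV, was the highest at 0.10. Of the 44 amino acid synthesis genes measured, ARO4 was at least 0.2 higher with 1 sign in all 4 pairings (0.20), near the 1.08% of all genes that were. ARG3 differed by 0.23, with pairings from -0.032 to 0.50. Among the periphery genes, INO1, of inositol synthesis, was lower in all pairings (-0.11) and GAL7, of galactose use, higher in all (0.09). The lowest and highest of the RSC complex were LDB7 (-0.13) and HTL1 (0.16).

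Enriched probes, defined on values smoothed over 500 bp as at least 3 lower-side SDs above the median, overlapped to a large extent. This threshold was 0.41 in wild type and 0.33 in the library labelled yku70∆, so the libraries were not cut at a common log2 level. The lower threshold by itself favours more enriched probes, and more shared ones, in the library labelled yku70∆. There were 1765 enriched probes in wild type and 1998 in the library labelled yku70∆, and 1572 were shared. The shared probes were 89.1% of the first (87.5% to 90.5%, exact binomial interval) and 78.7% of the second. That interval treats neighbouring smoothed probes as independent and does not cover the spread between hybridisations. The enriched probes formed 342 and 398 regions, of which 319 and 316 overlapped a region of the other library. All 21 wild-type regions within 5 kb of an end were kept. The authors' own marks of bound regions, in the deposited table, covered 2228 and 2205 probes, with 1798 in both. Since regions of 1 library are chosen on its own values, the levels in them were also read in the 299 regions of the library labelled sir4∆, which enters neither side. There the median was 0.69 in wild type and 0.62 in the library labelled yku70∆, a difference of -0.077 with pairings from -0.26 to 0.10. In the 18 of these regions within 5 kb of an end it was -0.25, with pairings from -0.48 to -0.07, and 14 were lower, as were 229 of all 299.

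Single enriched regions of wild type are given as a description, because wild-type values chose them. The lowest difference was at MUD1 on chromosome 2 (-0.57), with 1 of 2 probes near blank. Next was the region of YPT7, a Rab GTPase of vacuole fusion, and CDC5, the polo kinase (chromosome 13, positions 267685 to 268561). Its 5 probes averaged 1.28 and 0.91 in wild type and 0.69 and 0.44 in the library labelled yku70∆, a difference of -0.53. The region of VTS1 and PDE2 on chromosome 15 (positions 1012896 to 1013290) read 0.66 and 0.66 against 0.24 and 0.09 on 2 probes, and it was not called in the library labelled yku70∆. After the HMR flank came the end region of PAU8 on the left arm of chromosome 1 (-0.42), where the ChIP signal differed by -0.07 and the whole cell extract signal by 0.35. The highest differences were at GEX1 (0.36) and PAU10 with YRF1-1 (0.24), each with a probe near blank, then RNP1 with RPL8B (0.15), PHO90 (0.14) and TPI1 (0.13). Of these, PHO90, a phosphate transporter gene, was higher in all 4 pairings (0.0032 to 0.29).

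Values of the library labelled sir4∆ are set beside these, and both comparisons share the wild-type library as control. Its SIR4 probes were above blank in 30 of 30 whole cell extract readings, so these values too are stated by label only. Over the outermost 5 kb, the difference from wild type was -0.16 in the library labelled sir4∆ and -0.068 in that labelled yku70∆, and over the outermost 1 kb -0.54 and -0.22. YFR057W differed by -0.55 and -0.35, COS12 by -0.54 and -0.22, and YAE1 by 0.41 and 0.44. At the probe annotated to HMLALPHA1 that starts at 14412 the differences were -1.06 and -0.69. The YPT7 and CDC5 region differed by -0.26 and -0.53, where the library labelled yku70∆ had the lower value. Away from the ends, probes more than 20 kb inward were also read by class. Divergent promoters differed by 0.033 in the library labelled yku70∆ (pairings 0.031 to 0.043) and by 0.049 in the library labelled sir4∆, and probes inside open reading frames by -0.0026 (pairings -0.014 to 0.0094) and -0.017. Probes downstream of genes differed by -0.032 in the library labelled yku70∆, with pairings from -0.11 to 0.030, and by 0.011 in the library labelled sir4∆, the opposite sign.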

How the data were processed

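Per the submitters' processing notes, Agilent Feature Extraction was used, with no version given. The deposited intensity columns hold the brightness of each spot and its background in both channels, and the authors' normalised signals, whose channel medians are nearly equal. The deposited log2 columns hold the ratio of normalised ChIP over whole cell extract per hybridisation and combined. The deposited 0 or 1 marks of exclusion and bound regions are a unit of another kind (other). Positions are those of the files. Their genome build: not given in the sources used here. No probe or genome sequence was used here.

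Excluded spots and 295 mitochondrial probes were removed. Log2(ChIP / whole cell extract) was centred on the median of each hybridisation and averaged over both. Gene values average at least 2 probes inside the reading frame or up to 500 bp before it. Genes labelled as deleted were left out. Of 5659 annotated genes, 5639 matched the RefSeq table that gave the symbols. A gene was called at a difference of at least 0.3 (1.23-fold) with the same sign in all 4 pairings. Enriched regions held at least 2 probes with gaps of at most 1000 bp. A probe was near blank when its whole cell extract brightness was at most 2.6 SDs above the mean of 660 blank spots. Medians carry 95% order-statistic intervals, which cover the spread over probes or genes, not over cultures, and treat neighbouring probes as independent. Named genes were the 10 highest and 10 lowest differences with at least 3 probes, 1 sign in all pairings and no probe near blank or shared with a gene already named. Further named were the 2 highest and 2 lowest members of each list, all measured members of the Ku, silencing, anchoring and subtelomeric lists, and the extreme arms and regions. PMP3, RPL11A, single probes, and further list members and list or class values outside this rule were chosen after their values were seen. The comparison, the 25 lists and the loci were chosen with earlier results of these data known. The calling procedure was tested on simulated data. Python 3.11.15, numpy 2.4.6, scipy 1.17.1, statsmodels 0.14.6, R 4.3.3 and limma 3.58.1 were used.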

Additional observations from a re-analysis of the deposited data

How the results depend on the processing

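The alternatives were normexp background correction, removal of the intensity trend, leaving out probes near blank, bringing both libraries to the same lower-side SD, the authors' combined log2 ratio, each single pairing, other gene windows and other thresholds. The median difference over the outermost 5 kb stayed below 0 in each, at -0.026 with the same SD and at -0.11, -0.036 and -0.12 in 3 pairings. With the same SD the left end of chromosome 3 was at -0.10 and the HMR window at -0.047. Leaving out the right end of chromosome 6 (-0.066) or the outermost 1 kb (-0.056), both chosen after seeing the data, moved it little. The ribosomal protein gene difference was -0.14 with normexp, -0.0080 with the same SD and -0.13 from upstream probes alone. It was -0.21 and -0.30 against the first wild-type hybridisation and reversed, to 0.11 and 0.023, against the second. The count of called genes, 5, became 61 with normexp, 9 with the authors' combined ratio (where no pairing can be asked for), 20 from reading frames, 73 from upstream probes, 77 at a step of 0.2 and 0 at 0.5. The share of enriched wild-type probes kept was 81.5% with normexp, 84.3% at 2 SDs and 83.4% for the top 5% of probes. In the 4 pairings it was 86.6%, 92.0%, 68.2% and 80.3%. The correlation over genes was 0.93 with normexp, 0.89 without the intensity trend and 0.90 from reading frames, and 0.84, 0.81, 0.83 and 0.79 in the pairings. The YKU70 probes in the ChIP channel were at 0.098 against the other libraries, where their whole cell extract was at -0.050. Of the 20 genes with the highest and lowest differences, all 20 kept their sign under the processing alternatives. They were chosen as extremes with 1 sign in all 4 pairings of the same hybridisations, so kept signs were largely fixed by that choice. Sizes moved by over 1.5 times for AGX1 (down to 0.16), HUG1 (-0.13), YRA1 (-0.13), TOS6 (-0.12), RPL27B (-0.12), YND1 (up to 0.42) and RPL23A (-0.44). No paired analysis was possible because each group is 1 library, whose 2 hybridisations carry no number that ties them across groups. That number of arrays, and whole cell extract signal near blank at 161 and 182 probes, limit what could be detected.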
